A study of Mus musculus with 16 samples.

Results

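Transcripts of 10 genes of bile acid synthesis, conjugation, transport and sensing were followed in mouse liver by RNA sequencing. The genes were Cyp7a1, Cyp8b1, Cyp27a1, Baat, Slc27a5, Slc10a1, Abcb11, Abcc2, Nr1h4 and Nr0b2, taken by name from a table of 55487 genes. They were chosen with earlier results of these data known. All 10 had enough counts to be tested, among 14553 genes that did. The livers came from wild type C57BL/6J mice aged 12 weeks, in 4 groups of 4 libraries: sustained hypoxia, intermittent hypoxia, overlap hypoxia and room air. Overlap hypoxia joins the sustained and the intermittent exposure, per the series title. Every group had the same strain, genotype and age, and no allele or drug was given in the labels. Oxygen levels, exposure length, sex and hour of collection were not stated in the labels. The sample descriptions carry a different number for each library but do not call it an animal, so p-values describe how these libraries vary, which may be technical.

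Bile acids are made from cholesterol in hepatocytes. Cyp7a1 starts the classic route, Cyp8b1 directs it to cholic acid, and Cyp27a1 oxidises the side chain and starts the alternative route. Slc27a5 activates bile acids to coenzyme A esters and Baat joins these to taurine or glycine. Slc10a1 takes bile acids back up from portal blood, Abcb11 exports them into the canaliculus, and Abcc2 exports conjugated anions such as bilirubin glucuronides and divalent bile acids. Nr1h4 encodes FXR, the nuclear receptor that senses bile acids, and Nr0b2 encodes SHP, a repressor that FXR induces and that acts on Cyp7a1 and Cyp8b1 together with the receptor LRH-1. FXR is also a known inducer of Abcb11.

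The 250 bases before each RefSeq start (build GRCm38.p6) were searched in the 7 of 10 genes with an entry, at 8 starts. The window lay wholly inside the annotated gene for Nr1h4 and for a second start of Slc10a1. For Abcc2 all but 134 of its bases did. The windows are printed for Cyp8b1, Abcb11 and Nr0b2, because these windows held the letters searched for LRH-1 or FXR and because the genes stand at different points of the same feedback loop. Capitals mark those letters, each sequence runs 5′ to 3′ on the strand of its gene, and position −1 is the last base before the start.
Cyp8b1, minus strand, chr9:121916306-121916555: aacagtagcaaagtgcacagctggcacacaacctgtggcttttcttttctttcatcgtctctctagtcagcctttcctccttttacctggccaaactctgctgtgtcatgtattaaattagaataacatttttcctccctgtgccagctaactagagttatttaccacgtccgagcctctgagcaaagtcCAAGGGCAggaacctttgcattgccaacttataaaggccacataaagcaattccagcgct
Abcb11, minus strand, chr2:69342617-69342866: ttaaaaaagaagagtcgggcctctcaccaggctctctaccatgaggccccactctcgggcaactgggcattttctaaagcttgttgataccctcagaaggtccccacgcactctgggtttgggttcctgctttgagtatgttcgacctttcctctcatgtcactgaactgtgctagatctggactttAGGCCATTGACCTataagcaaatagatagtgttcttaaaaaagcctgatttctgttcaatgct
Nr0b2, plus strand, chr4:133553126-133553375: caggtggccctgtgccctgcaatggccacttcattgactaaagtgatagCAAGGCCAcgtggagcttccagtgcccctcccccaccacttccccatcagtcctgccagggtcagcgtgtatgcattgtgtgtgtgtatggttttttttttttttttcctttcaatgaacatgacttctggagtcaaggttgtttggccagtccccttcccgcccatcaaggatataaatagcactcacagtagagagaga
The Cyp8b1 window held CAAGGGCA at −60 to −53 and the Nr0b2 window CAAGGCCA at −201 to −194, both matches to the LRH-1 letters CAAGGNCA. Those letters occurred on either strand in 5.53% of 32851 RefSeq windows of the same length. The Abcb11 window held AGGCCATTGACCT at −63 to −51, a match to the FXR letters AGGNCA and TGACCT 1 base apart, which occurred in 11 windows or 0.0335%. The short core letters of hypoxia-inducible factors, ACGTG and GCGTG, were in 16.6% and 28.2% of all windows. One or other was present in the windows of Cyp8b1, Abcb11 and Nr0b2, on either strand. Neither was in a window of the other genes searched, Cyp27a1, Slc10a1, Abcc2 and Nr1h4. The share of all windows with one or other was not counted. In Nr0b2, ACGTG at −194 to −190 and its reading on the other strand, −195 to −191, form 1 palindrome, which overlapped the LRH-1 letters. The letters searched for HNF4, AGGNCA repeated 1 base apart (0.338% of windows), and for clock-controlled PAR bZIP factors, TTANGTAA (2.06%), were in none of the 3 printed windows. A match is a string of letters, and no binding was measured in these libraries.

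Library totals lay between 10940275 counts in overlap hypoxia replicate 3 and 64789635 in sustained hypoxia replicate 2. The protocol text names another tissue than the liver label, so marker genes were checked. Alb, the hepatocyte albumin gene, stood at 36110 to 60622 CPM (a count relative to its library's total, with TMM scaling between libraries), while the photoreceptor gene Rcvrn and the ileal genes Fabp6 and Fgf15 were at 0 counts in all 16 libraries. Not every photoreceptor or intestinal marker checked was at 0. Gnat1, of photoreceptors, averaged 6.88, 7.49 and 6.55 CPM in sustained, intermittent and overlap hypoxia, against 5.21 CPM in room air. The intestinal marker Fabp2 averaged 100.2, 59.8 and 83.5 CPM, against 113 CPM in room air, and Slc5a1 averaged 0.904, 0.942 and 1.11 CPM, against 0.921 CPM. The share of ribosomal RNA averaged 2.16% ± 0.698 of a library in sustained hypoxia, 25.2% ± 6.997 in intermittent hypoxia and 9.59% ± 5.82 in overlap hypoxia, against 5.22% ± 3.71 in room air (SD, n = 4 each). The 4 intermittent libraries, at 18.5% to 34.8%, did not overlap the 4 room air libraries, at 1.57% to 10.2% (exact two-sided permutation p = 0.0286, the smallest possible with 4 against 4, and 0.0858 after adjustment over 9 tests). The mitochondrially encoded share averaged 8.44% ± 2.31 in intermittent hypoxia, against 2.11% ± 0.680 in room air, and that of the Mup genes, for major urinary proteins, 5.96% ± 3.23 in intermittent hypoxia, against 20.1% ± 4.44 in room air (SD, n = 4 each). These shares did not overlap either, with the same exact two-sided permutation p = 0.0286 (adjusted 0.0858). All 3 shares move with the intermittent group beside every result given for it. With the genes of all 3 left out of the fit, the count of the 10 genes called in intermittent hypoxia against room air was 5, as with them. That fit cannot tell whether the differences between libraries also bear on the remaining genes. With the ribosomal RNA share as covariate none of the 5 was called. Over all genes 77 of 14553 were called in that fit, against 5404 without the covariate.

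**Figure D1:**
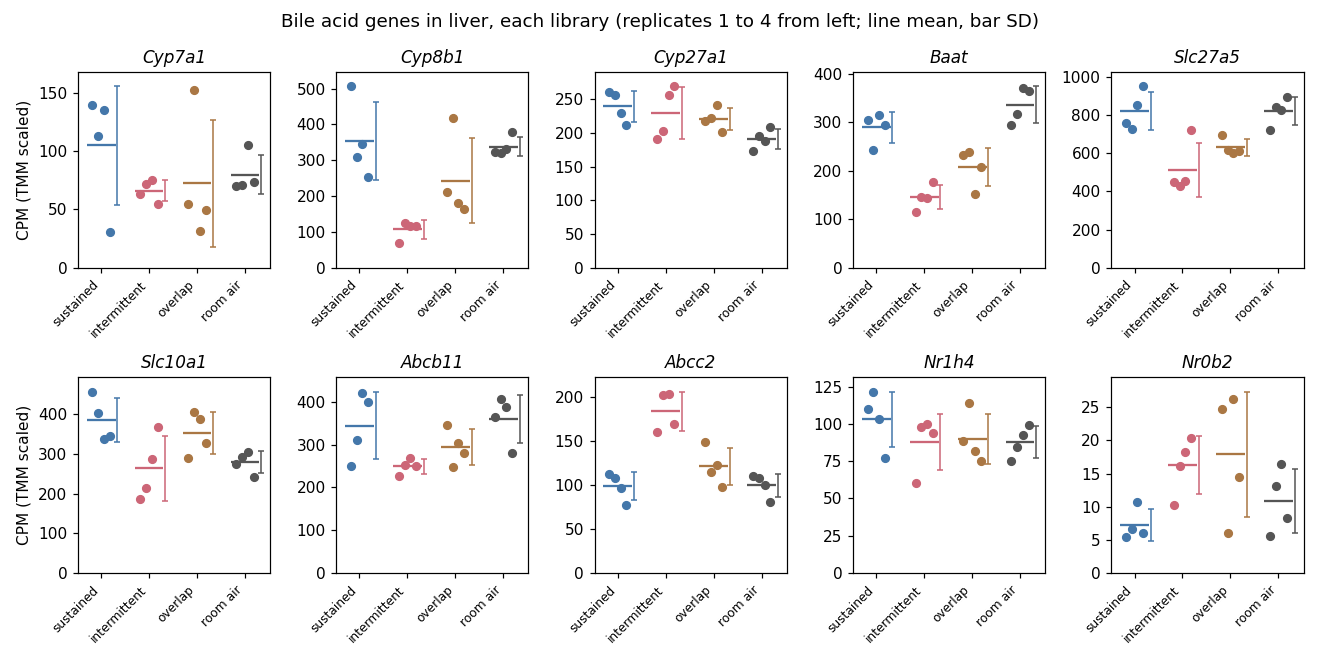
CPM (TMM scaled, each panel from 0) of the 10 genes in each of the 16 libraries, with points for replicates 1 to 4, a line for the group mean and a bar for the SD. Cyp8b1, Baat, Slc27a5 and Abcb11 lie lower, and Abcc2 higher, in every intermittent hypoxia library than in any room air library.

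Of the 3 exposures, intermittent hypoxia had the most of these genes called against room air. Transcripts of 4 genes fell, Cyp8b1, Baat, Slc27a5 and Abcb11, and those of Abcc2 rose. These 5 of 10 genes passed edgeR's quasi-likelihood test at an adjusted p under 0.05, where 37.1% of all genes tested did (18.3% lower and 18.9% higher). The same 5 were also the genes whose values did not overlap between intermittent hypoxia and room air, against 35.4% of all genes. The share of genes called was thus 5 of 10 beside a background of over 1 in 3. The median log2 fold change was −0.18 over the 10 genes and 0.03 over all genes tested. Overlap hypoxia against room air had 1 gene called, Baat, beside 6.29% of all genes, and sustained hypoxia had 0, beside 0.0481%.

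The 12-alpha-hydroxylase gene Cyp8b1 (ENSMUSG00000050445; GRCm38 chromosome 9, 121914356 to 121916305, minus strand, 1 exon) had the largest change of the 10 in intermittent hypoxia. It stood at 506, 309, 345 and 252 CPM in sustained hypoxia, 69.2, 126, 116 and 118 CPM in intermittent hypoxia and 212, 417, 179.7 and 163 CPM in overlap hypoxia, against 322, 321, 332 and 378 CPM in room air. All 4 intermittent libraries lay below every other library, while the sustained and overlap libraries spread to both sides of the narrow room air range. In intermittent hypoxia Cyp8b1 fell to 107 ± 25.6 CPM, against 338.2 ± 27.0 CPM in room air (log2 fold change −1.66, SE 0.28, edgeR adjusted p = 0.000294). The log2 fold changes in sustained and overlap hypoxia were 0.06 and −0.48 (edgeR adjusted p = 0.960 and 0.319). Overlap replicate 2 held the highest value of its group, 417 CPM, and without that library the overlap value was −0.87 (edgeR adjusted p = 0.0203). Between the hypoxia groups, Cyp8b1 was higher in overlap than in intermittent hypoxia by 1.18 (SE 0.28, edgeR adjusted p = 0.0259).

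Cyp7a1 (ENSMUSG00000028240; chromosome 4, 6265612 to 6275633, minus strand), the rate-limiting enzyme of the classic route, did not pass in any comparison. Its values were 139.8, 113, 135 and 30.8 CPM in sustained hypoxia, 63.3, 71.4, 74.9 and 54.3 CPM in intermittent hypoxia and 54.8, 152, 31.9 and 49.9 CPM in overlap hypoxia, against 69.9, 70.9, 105 and 73.4 CPM in room air. Single libraries set the spread: sustained replicate 4 lay far below its group and overlap replicate 2 far above, and every hypoxia group overlapped room air. The coefficient of variation was 48.4% among sustained, 13.9% among intermittent and 75.2% among overlap libraries, against 21.3% among room air libraries. The log2 fold changes against room air were 0.39 (95% interval −0.65 to 1.43), −0.28 (−1.31 to 0.76) and −0.14 (−1.18 to 0.90) in sustained, intermittent and overlap hypoxia. A rise of 1 log2 unit in sustained hypoxia, and a fall of that size in intermittent or overlap hypoxia, lay within these intervals.

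Cyp27a1 (ENSMUSG00000026170; chromosome 1, 74713574 to 74737892, plus strand), the mitochondrial sterol 27-hydroxylase, had 261, 256, 229.6 and 212 CPM in sustained hypoxia, 191, 202, 257 and 269 CPM in intermittent hypoxia and 218, 222, 242 and 201 CPM in overlap hypoxia, against 173, 195, 189 and 209 CPM in room air. The sustained libraries were all above the room air libraries, by a small gap, and both other groups overlapped room air. Its log2 fold changes were 0.32 (SE 0.13, edgeR adjusted p = 0.334), 0.26 (adjusted p = 0.123) and 0.20 (adjusted p = 0.374) in sustained, intermittent and overlap hypoxia. None passed. Under 11 other ways of processing the value in sustained hypoxia ranged from 0.09 to 0.33, with no call.

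Both genes of conjugation were lower in intermittent hypoxia. Baat (ENSMUSG00000039653; chromosome 4, 49489422 to 49506557, minus strand) had 305.4, 243, 315.5 and 295 CPM in sustained hypoxia, 116, 146, 143 and 177 CPM in intermittent hypoxia and 233, 239, 152 and 208 CPM in overlap hypoxia, against 294, 316.6, 372 and 365 CPM in room air. The intermittent and the overlap libraries were all below the room air libraries, and intermittent and overlap libraries overlapped each other. Baat fell to 146 ± 25.2 CPM in intermittent hypoxia, against 336.97 ± 37.6 CPM in room air (log2 fold change −1.21, SE 0.16, edgeR adjusted p = 2.03e-05). In overlap hypoxia it fell to 208 ± 40.1 CPM (log2 −0.70, SE 0.16, edgeR adjusted p = 0.0155), a comparison in which 2.89% of all genes were called lower. That overlap call was lost when overlap replicate 3 (adjusted p = 0.0592), room air replicate 3 (0.0606) or room air replicate 4 (0.0525) was left out, and with length and GC offsets (0.198). Of the 10 genes it was the only one called in overlap hypoxia against room air.

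Slc27a5 (ENSMUSG00000030382; chromosome 7, 12988346 to 12998192, minus strand), the bile acid coenzyme A ligase, had 759, 726, 852 and 949 CPM in sustained hypoxia, 446, 427, 452 and 721 CPM in intermittent hypoxia and 696, 615, 599 and 610.5 CPM in overlap hypoxia, against 722, 839, 823 and 894 CPM in room air. Intermittent replicate 4 stood well above the rest of its group and just under the lowest room air library. The overlap libraries were also all below the room air libraries, as in Baat, so 2 of 10 genes were apart and lower there, where 7.14% of all genes were. Slc27a5 fell in intermittent hypoxia (512 ± 140.0 against 819 ± 71.6 CPM; log2 −0.68, SE 0.16, edgeR adjusted p = 0.00223). In overlap hypoxia its log2 fold change was −0.38 (SE 0.16, edgeR adjusted p = 0.153).

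Slc10a1 (ENSMUSG00000021135; chromosome 12, 80953183 to 80968705, minus strand), the sodium-dependent uptake carrier NTCP, had 458, 404, 337.5 and 346 CPM in sustained hypoxia, 186, 215, 287 and 369 CPM in intermittent hypoxia and 290.1, 406, 388 and 327 CPM in overlap hypoxia, against 276, 294, 304.8 and 241 CPM in room air. The sustained libraries lay above all room air libraries, and the intermittent libraries spread across the room air range and beyond it on both sides. The log2 fold changes were 0.47 (SE 0.18, edgeR adjusted p = 0.321) in sustained, −0.08 (adjusted p = 0.765) in intermittent and 0.34 (adjusted p = 0.271) in overlap hypoxia.

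In sustained hypoxia against room air, edgeR called 0 of the 10 genes. DESeq2 called 0 of the 10, beside 1.66% of the genes it gave an adjusted p, and limma-voom called 0 of the 10, beside 1.7% of all genes. At an unadjusted p under 0.05 edgeR had 2 of the 10, Cyp27a1 and Slc10a1, beside 11.5% of all genes. The same 2 genes were those whose values did not overlap, both higher, beside 8.92% of all genes in either direction and 4.6% higher.

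The canalicular exporters differed in direction. Abcb11 (ENSMUSG00000027048; chromosome 2, 69238282 to 69342616, minus strand), the bile salt export pump, had 250.1, 309.9, 420.2 and 399 CPM in sustained hypoxia, 227, 253, 268 and 251 CPM in intermittent hypoxia and 347, 249, 303 and 281 CPM in overlap hypoxia, against 366, 408, 388 and 281 CPM in room air. All intermittent libraries were below the lowest room air library, and sustained and overlap libraries overlapped room air. Abcb11 fell in intermittent hypoxia (249.6 ± 16.9 against 360.4 ± 55.9 CPM; log2 −0.53, SE 0.16, edgeR adjusted p = 0.0143), with −0.06 in sustained and −0.29 in overlap hypoxia, neither called. The predicted genes Gm13613 and Gm13614 lie across from 3.01% of its exon bases, and 1.68% of its 50-base words occur in transcripts of other genes.

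Abcc2 (ENSMUSG00000025194; chromosome 19, 43782192 to 43840740, plus strand), the multidrug resistance protein MRP2, had 113, 109, 97.2 and 77.2 CPM in sustained hypoxia, 161, 203, 204 and 169 CPM in intermittent hypoxia and 149, 115, 123 and 98.1 CPM in overlap hypoxia, against 110.2, 108, 99.6 and 81.4 CPM in room air. Its intermittent libraries were above every other library, and the other groups overlapped room air. Abcc2 rose in intermittent hypoxia to 184 ± 22.4 CPM, against 99.7 ± 13.03 CPM in room air (log2 0.88, SE 0.15, edgeR adjusted p = 0.000209). In overlap hypoxia it was lower than in intermittent hypoxia by 0.60 on the log2 scale (log2 −0.60, SE 0.15, edgeR adjusted p = 0.0287). The difference between overlap hypoxia and room air was 0.28 (SE 0.15, adjusted p = 0.277).

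**Figure D2:**
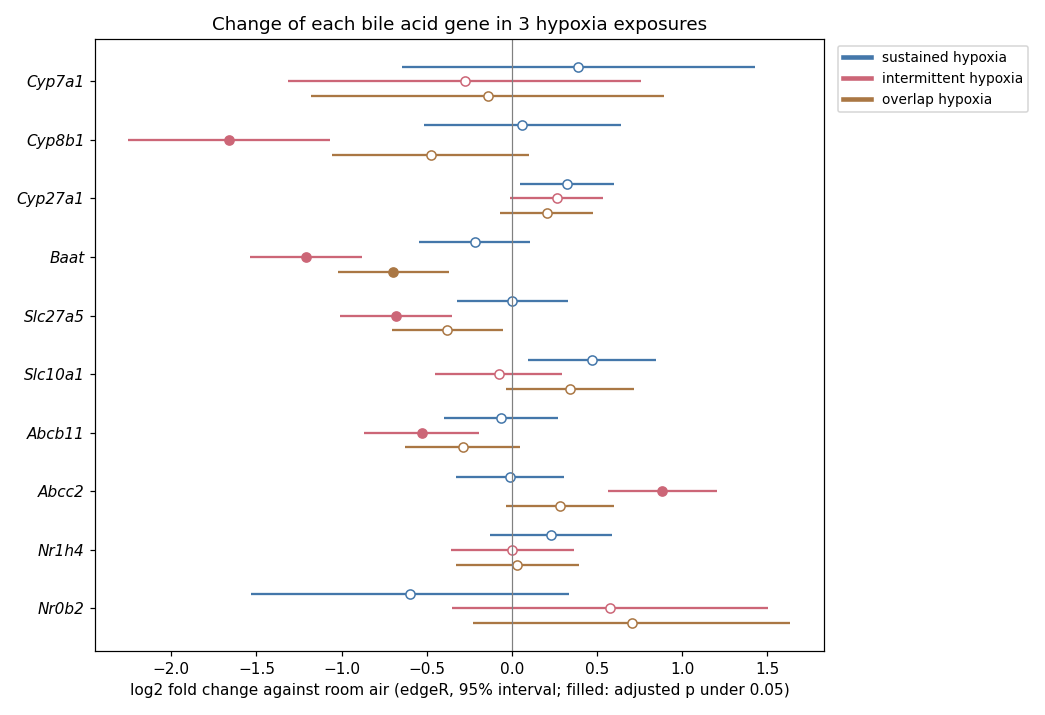
Log2 fold change of each gene against room air in sustained, intermittent and overlap hypoxia (horizontal axis, edgeR), with 95% intervals. Filled points passed an adjusted p under 0.05: Cyp8b1 at −1.66, Baat at −1.21, Slc27a5 at −0.68, Abcb11 at −0.53 and Abcc2 at 0.88 in intermittent hypoxia, and Baat at −0.70 in overlap hypoxia.

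The receptor gene Nr1h4 (ENSMUSG00000047638; chromosome 10, 89454234 to 89533585, minus strand) had 77.2 to 121 CPM in sustained hypoxia, 60.4 to 100.2 CPM in intermittent hypoxia and 75.2 to 114 CPM in overlap hypoxia, against 74.9 to 99.4 CPM in room air. All 3 hypoxia groups overlapped room air, and its log2 fold changes were 0.23, 0.00 and 0.03 (edgeR adjusted p = 0.671, 0.991 and 0.939). In intermittent hypoxia the 95% interval of the difference was −0.36 to 0.36. Nr0b2 (ENSMUSG00000037583; chromosome 4, 133553376 to 133556536, plus strand), the SHP gene, had 5.42, 6.65, 10.7 and 6.08 CPM in sustained hypoxia, 10.2, 16.1, 18.3 and 20.4 CPM in intermittent hypoxia and 24.7, 6.03, 26.3 and 14.5 CPM in overlap hypoxia, against 5.62, 13.1, 16.5 and 8.33 CPM in room air. Room air libraries spanned a wide range that reached into all 3 hypoxia groups. Its log2 fold changes were −0.60 (SE 0.43), 0.58 (SE 0.43) and 0.70 (SE 0.43) in sustained, intermittent and overlap hypoxia, and none passed (edgeR adjusted p = 0.661, 0.320 and 0.363).

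Direct comparisons between the exposures gave the following. In overlap against intermittent hypoxia, Cyp8b1 was called higher and Abcc2 lower, 2 of 10 genes beside 6.15% of all genes, and both were also apart, beside 11.2% of all genes. Both calls were lost when intermittent replicate 2 was left out (edgeR adjusted p = 0.0607 for Cyp8b1 and 0.0767 for Abcc2), as they were without intermittent replicate 3 (0.0648 and 0.0762) or overlap replicate 4 (0.0579 and 0.117). The Abcc2 call was also lost without overlap replicate 2 (0.0617). Both were lost with the ribosomal share as covariate and when only the compared groups were fitted, and that of Cyp8b1 also with length and GC offsets, with limma-voom and with no filter on low counts. Baat stood 0.51 higher in overlap than in intermittent hypoxia and did not pass (edgeR adjusted p = 0.0541). Without intermittent replicate 4, Baat, Slc27a5 and Slc10a1 were called higher in overlap hypoxia (edgeR adjusted p = 0.0220, 0.0219 and 0.0266), and without overlap replicate 3 Baat was (0.0195).

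In sustained against intermittent hypoxia 7 of the 10 genes were called, beside 38.4% of all genes, and 4 of the 10 were apart, beside 35.8%. Higher in sustained hypoxia were Cyp8b1 by 1.72, Baat by 0.99, Slc27a5 by 0.68, Slc10a1 by 0.55 and Abcb11 by 0.47 (edgeR adjusted p between 0.000117 and 0.0277), 5 of 10 beside 18.9% of all genes. Lower were Abcc2 (log2 −0.89, edgeR adjusted p = 0.000210) and Nr0b2 (log2 −1.18, adjusted p = 0.0478), 2 of 10 beside 19.5% of all genes. With the ribosomal share as covariate none of the 7 was called, and with offsets for length and GC Cyp8b1 and Abcc2 were. The calls of Slc10a1, Abcb11 and Nr0b2 also depended on single libraries. That of Slc10a1 was lost without sustained replicate 1, intermittent replicate 1 or intermittent replicate 2 (edgeR adjusted p = 0.0724, 0.0687 and 0.0712). That of Abcb11 was lost without sustained replicate 3 or 4 or intermittent replicate 1 (0.0987, 0.0815 and 0.0590), and with upper-quartile scaling (0.0603) or limma-voom (0.0514). That of Nr0b2 was lost in 10 of 16 fits that left out a library, with an adjusted p of up to 0.121 without sustained replicate 1, and with no filter on low counts (0.118). The intermittent libraries are the same ones as in the comparison with room air, so these are not separate evidence on them.

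In overlap against sustained hypoxia edgeR called 0 of 10 genes, beside 0.165% of all genes. At an unadjusted p under 0.05 there were 3, Baat (log2 −0.48), Slc27a5 (−0.38) and Nr0b2 (1.303), beside 20.5% of all genes, and Baat and Slc27a5 were apart and lower, beside 5.58%. DESeq2 called 2 (Baat and Nr0b2, beside 7.83% of genes) and limma-voom called 2 (Cyp8b1 and Baat, beside 8.41%). Without overlap replicate 2, edgeR called Cyp8b1 (log2 −0.93, adjusted p = 0.0121), Baat (−0.55, adjusted p = 0.0404) and Nr0b2 (1.60, adjusted p = 0.0151).

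The departure from additivity sets the log2 change of overlap hypoxia against what adding those of the sustained and the intermittent exposure would give, each relative to room air. By edgeR 0 of 10 genes departed, beside 0.454% of all genes, and 3 had an unadjusted p under 0.05, beside 17.5%. These were Baat at 0.73, Cyp8b1 at 1.12 and Abcc2 at −0.59 (edgeR adjusted p = 0.106, 0.161 and 0.169). DESeq2 called 1, Baat, beside 5.16% of genes, and limma-voom called 0, beside 1.87%. In each of these 3 genes the overlap mean lay between the intermittent and the room air mean. Without overlap replicate 3, edgeR called Baat as well (log2 0.86, adjusted p = 0.0496).

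**Figure D3:**
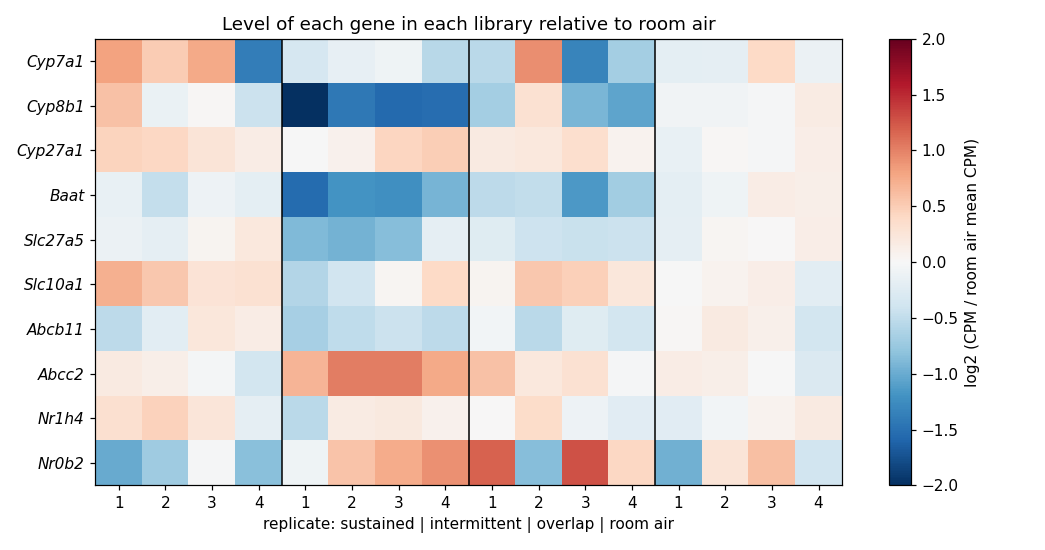
Log2 ratio of each gene's CPM in each library to its mean over the 4 room air libraries, with libraries in columns (replicates 1 to 4 of sustained, intermittent and overlap hypoxia, then room air) and genes in rows; the colour scale ends at 2 log2 units either way. The intermittent columns are blue (lower) for Cyp8b1 and Baat and red (higher) for Abcc2, and overlap replicate 2 stands out within its group in Cyp7a1, Cyp8b1 and Nr0b2.

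Within the groups, several of the genes moved together from library to library. The deviations of log2 CPM from the group means had a Pearson r of 0.81 between Cyp8b1 and Nr1h4, 0.75 between Cyp27a1 and Slc10a1, 0.72 between Cyp7a1 and Cyp8b1 and 0.66 between Cyp7a1 and Nr1h4, over 16 libraries. The strongest negative value was −0.43, between Cyp8b1 and Abcb11. These are descriptions: values of a library share its depth and scaling. Overlap replicate 2 had the highest level of its group in Cyp7a1, Cyp8b1, Baat, Slc10a1 and Nr1h4 and the lowest in Abcb11 and Nr0b2. Its ribosomal RNA share, 2.53%, was also the lowest of the overlap libraries. Sustained replicate 4 had the lowest level of its group in Cyp7a1, Cyp8b1, Cyp27a1, Abcc2 and Nr1h4. The median coefficient of variation of the 10 genes was 17.2% among sustained, 19.3% among intermittent and 18.1% among overlap libraries, against 11.5% among room air libraries. Over all genes tested it was 17.9%, 24.4% and 24.4% in the hypoxia groups, against 18.6% in room air.

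Levels between genes are given as CPM per kilobase of exon. Slc27a5 was the most abundant of the 10 in every group, at 336.8 ± 41.1 in sustained, 209.8 ± 57.4 in intermittent and 259 ± 18.3 CPM per kilobase in overlap hypoxia, against 336 ± 29.4 in room air. In room air Baat (174 ± 19.4), Cyp8b1 (173 ± 13.8), Slc10a1 (127 ± 12.7), Cyp27a1 (88.1 ± 6.88) and Abcb11 (70.0 ± 10.9 CPM per kilobase) followed. The lower end held Nr1h4 (38.1 ± 4.55), Cyp7a1 (19.1 ± 4.07), Abcc2 (11.7 ± 1.53) and Nr0b2 (9.61 ± 4.29). In that order the neighbours Baat and Cyp8b1, and Abcc2 and Nr0b2, did not differ beyond their spread. In intermittent hypoxia Slc10a1 (120.2 ± 37.1) and Cyp27a1 (106 ± 17.9) had higher means than Baat (75.1 ± 13.002) and Cyp8b1 (54.9 ± 13.1 CPM per kilobase), whereas in room air both had lower means than Baat and Cyp8b1. The intermittent libraries of Baat overlapped those of Slc10a1 and Cyp27a1, while those of Cyp8b1 lay below both.

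The wider pathway was described with 4 lists of other genes. Of 12 further genes of sterol hydroxylation and ring modification tested, 4 fell, 1 rose and 7 did not pass in intermittent hypoxia (list median log2 −0.19, all genes 0.03). Over all genes 18.3% fell and 18.9% rose in that comparison, 37.1% together, a background to which this list and the next 3 are to be held. Hsd3b7, which acts on the ring after 7-alpha-hydroxylation, fell to 163 ± 22.7 CPM, against 341 ± 28.6 CPM in room air (log2 −1.06, edgeR adjusted p = 2.33e-05). Akr1c6 (log2 −1.17), Cyp2c70, which makes muricholic acids in mice (−0.98), and Cyp7b1, the 7-alpha-hydroxylase of the alternative route (−1.81), also fell (edgeR adjusted p = 7.24e-05, 0.00799 and 0.0138). Cyp46a1, a cholesterol 24-hydroxylase best known from brain, rose at a low level, to 2.04 ± 1.27 against 0.311 ± 0.0867 CPM (log2 2.71, adjusted p = 9.02e-05). In overlap hypoxia Hsd3b7 fell (193 ± 33.03 CPM, log2 −0.82, edgeR adjusted p = 0.00480) and Cyp46a1 rose (1.99, adjusted p = 0.0123), the other 10 did not pass, and in sustained hypoxia none of 12 did, or 1 without overlap replicate 2.

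Of 11 genes of side chain shortening and related conjugation, 5 fell, 0 rose and 6 did not pass in intermittent hypoxia (list median −0.33), beside 18.3% of all genes that fell. Amacr, the racemase that prepares the side chain for peroxisomal oxidation, fell to 63.9 ± 6.22 CPM, against 123 ± 9.25 CPM in room air (log2 −0.95, edgeR adjusted p = 1.63e-05). Abcd3, a peroxisomal importer (−0.73), Acot8, a peroxisomal thioesterase (−0.78), the sulfotransferase gene Sult2a8 (−0.71) and Hsd17b4, the peroxisomal multifunctional enzyme (−0.57), fell too (edgeR adjusted p between 0.000547 and 0.00383). Acot8 was the 1 gene of this list called in overlap hypoxia (log2 −0.83, adjusted p = 0.00761), and none was called in sustained hypoxia.

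Of 16 other transporters, 5 rose, 2 fell and 9 did not pass in intermittent hypoxia (list median 0.31), so 7 of 16 were called beside 37.1% of all genes. Abcg5 and Abcg8, the partners that form the canalicular sterol exporter, rose to 71.6 ± 5.48 and 55.7 ± 5.49 CPM, against 29.4 ± 2.54 and 29.2 ± 1.03 CPM in room air (log2 1.28 and 0.93, edgeR adjusted p = 8.97e-06 and 4.45e-05). The organic anion carriers went opposite ways: Slco1a4 rose by 1.15 and Slco1a1 fell (87.9 ± 42.1 against 301 ± 27.3 CPM, log2 −1.78, edgeR adjusted p = 0.000142). Abcb1a, a multidrug exporter (1.47), and Slc9a3r1, a scaffold protein of apical membranes (0.63), rose and Abcg2 fell (−0.52, edgeR adjusted p = 0.0314). In overlap hypoxia Slc9a3r1 was called (log2 0.57, edgeR adjusted p = 0.0228), a call lost without overlap replicate 1 or 3 or room air replicate 3 or 4, and in sustained hypoxia none was. For Abcg5, Slco1a4 and Slco1a1 the departure from additivity passed, at −1.11, −1.17 and 1.78 (edgeR adjusted p = 0.0373, 0.0446 and 0.0487, beside 0.454% of all genes called), each against the direction of the change in intermittent hypoxia. None of the 16 departed when sustained replicate 1, 2 or 3, intermittent replicate 3, overlap replicate 4 or room air replicate 2, 3 or 4 was left out, and 1 did without intermittent, overlap or room air replicate 1.

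Of 19 regulators tested, 6 rose, 1 fell and 12 did not pass in intermittent hypoxia (list median 0.33), so 7 of 19 were called, a share near the 37.1% of all genes. Mafg, a repressor of bile acid synthesis genes that FXR induces in mice, rose to 22.6 ± 3.30 CPM, against 10.2 ± 2.27 CPM in room air (log2 1.15, edgeR adjusted p = 7.47e-05). Fgfr4, the receptor for the ileal hormone that represses Cyp7a1 (0.66), the coactivator gene Ppargc1a (0.79) and the clock-linked repressor gene Bhlhe40 (0.63) rose as well. Nr1h3, the oxysterol receptor LXR-alpha, fell (66.9 ± 14.9 against 116 ± 19.8 CPM, log2 −0.80, edgeR adjusted p = 0.00141). Dbp, a clock-controlled PAR bZIP factor, rose in sustained, intermittent and overlap hypoxia (104 ± 14.5, 92.6 ± 15.5 and 96.7 ± 16.6 CPM, against 46.6 ± 9.13 CPM in room air; log2 1.16, 0.99 and 1.05, edgeR adjusted p = 0.00595, 0.000161 and 0.00303). It was the only gene of the 4 lists called in sustained hypoxia, and these comparisons share the room air libraries. A further regulator was called in overlap hypoxia without sustained replicate 4, intermittent replicate 1 or 3, overlap replicate 2 or 4 or room air replicate 1. With the ribosomal RNA share as covariate, 0 of 12, 0 of 11, 4 of 16 and 0 of 19 genes of the 4 lists were called in intermittent hypoxia. Over all genes 77 of 14553 were called in that fit. When length and GC content were offset, 3, 2, 6 and 7 genes of the lists were called, beside 3347 over all genes.

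Cell type markers and gene length were set beside these results. Of 7 hepatocyte markers 4 fell, 0 rose and 3 did not pass in intermittent hypoxia (list median log2 −0.45), beside 18.3% of all genes that fell, and their summed level was 55839 to 80834 CPM in intermittent hypoxia, against 59291 to 86874 CPM in room air. In sustained and overlap hypoxia 0 of 7 passed, with sums of 78491 to 86309 and 73313 to 87368 CPM. Of 7 Kupffer cell markers 5 fell in intermittent and 5 in overlap hypoxia, beside 18.3% and 2.89% of all genes, with sums of 32.5 to 55.7 and 33.1 to 38.3 CPM, against 71.7 to 128 CPM in room air, and in sustained hypoxia 0 of 7 passed, with 51.7 to 87.3 CPM. The summed level of the cholangiocyte markers was 55.7 to 84.2 CPM in intermittent hypoxia, against 49.1 to 69.0 CPM in room air; Krt19, which defines these cells, reached 2.45 CPM. In intermittent hypoxia 1 of 6 sinusoidal endothelial markers rose and 1 fell, and 2 of 6 stellate cell markers rose and 0 fell, beside 18.9% of all genes that rose. These 2 stellate markers, Pdgfrb and Col1a1, averaged only 2.37 and 2.85 CPM in intermittent hypoxia. The summed level of the stellate markers was 96.7 to 127.7 CPM, within the 82.4 to 167.8 CPM of room air. In overlap hypoxia 2 of 6 endothelial markers fell (list median −0.63), beside 2.89% of all genes, with sums of 27.0 to 51.7 CPM, all below the 64.6 to 81.0 CPM of room air. No stellate marker passed in overlap hypoxia, no endothelial or stellate marker in sustained hypoxia, and none of 5 erythroid markers in any of the 3 exposures. In sustained hypoxia, where 0.0481% of all genes passed, the erythroid list median was 1.68 on the log2 scale. The erythroid sums there were 417 to 2075 CPM, against 252 to 712 CPM in room air, ranges that overlapped. In whole liver, fewer cells of a type and less RNA per cell cannot be told apart. The part of these marker changes in the results above was not tested.

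Fold changes varied with the length and the GC content of the gene. Across 14540 genes, which are not independent replicates, exon length and the change against room air had a Spearman correlation of −0.12 for sustained, 0.26 for intermittent and 0.21 for overlap hypoxia. For GC content the Spearman correlation was 0.39 for sustained, 0.095 for intermittent and 0.14 for overlap hypoxia, so the largest of the values was in sustained hypoxia. In intermittent hypoxia genes of over 6000 bases had a median log2 fold change of 0.32 and 30.2% of them were called higher, while genes of 1000 to 2000 bases had a median of −0.24 and 28.9% were called lower. Abcc2, the 1 gene of the 10 that rose, has 8532 bases of exon, the most of the 10. Among the genes that fell, Baat has 1941 bases, Cyp8b1 1950 and Slc27a5 2438, while Abcb11 has 5146 bases. Each of the 4 lay below the middle 50% of its length class.

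**Figure D4:**
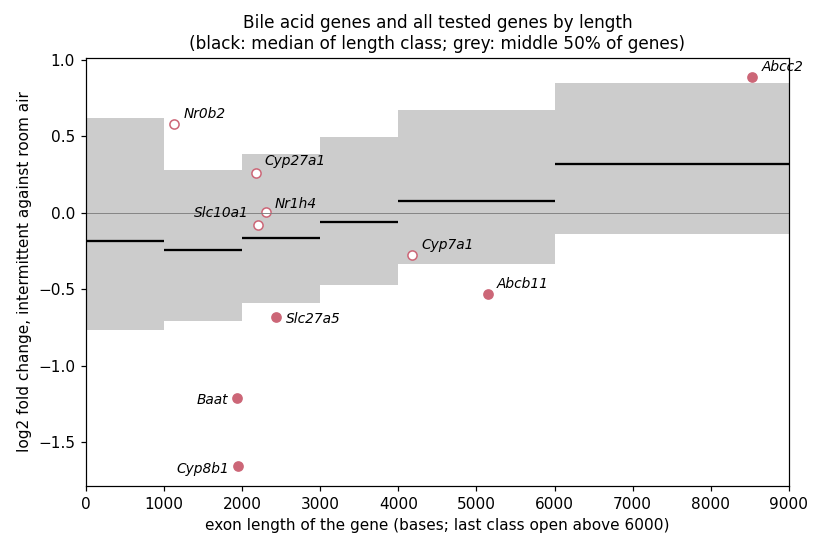
Log2 fold change in intermittent hypoxia against room air (vertical axis) by exon length in bases, with black lines for the median and grey bands for the middle 50% of all tested genes in each length class, and points for the 10 genes (filled: called). Cyp8b1, Baat, Slc27a5 and Abcb11 lie below the band of their length, and Abcc2, at 8532 bases, just above it.

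The 5 calls in intermittent hypoxia were kept in all 16 fits that left out a library. With offsets for length and GC content, the calls of Cyp8b1 (log2 −1.36, edgeR adjusted p = 0.000996), Baat (−0.65, adjusted p = 0.0269) and Abcc2 (0.94, adjusted p = 0.00300) remained. Those of Slc27a5 (−0.42, adjusted p = 0.152) and Abcb11 (−0.35, adjusted p = 0.318) were lost. With the ribosomal RNA share of each library as a covariate, Cyp8b1 stood at −0.98, Baat at −0.96, Slc27a5 at −0.27, Abcb11 at −0.83 and Abcc2 at 0.70, and none of them passed (edgeR adjusted p between 0.128 and 0.664). In that fit 77 of 14553 genes passed. The ribosomal share and the exposure cannot be told apart in this comparison, because the shares of intermittent and room air libraries do not overlap.

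**Figure D5:**
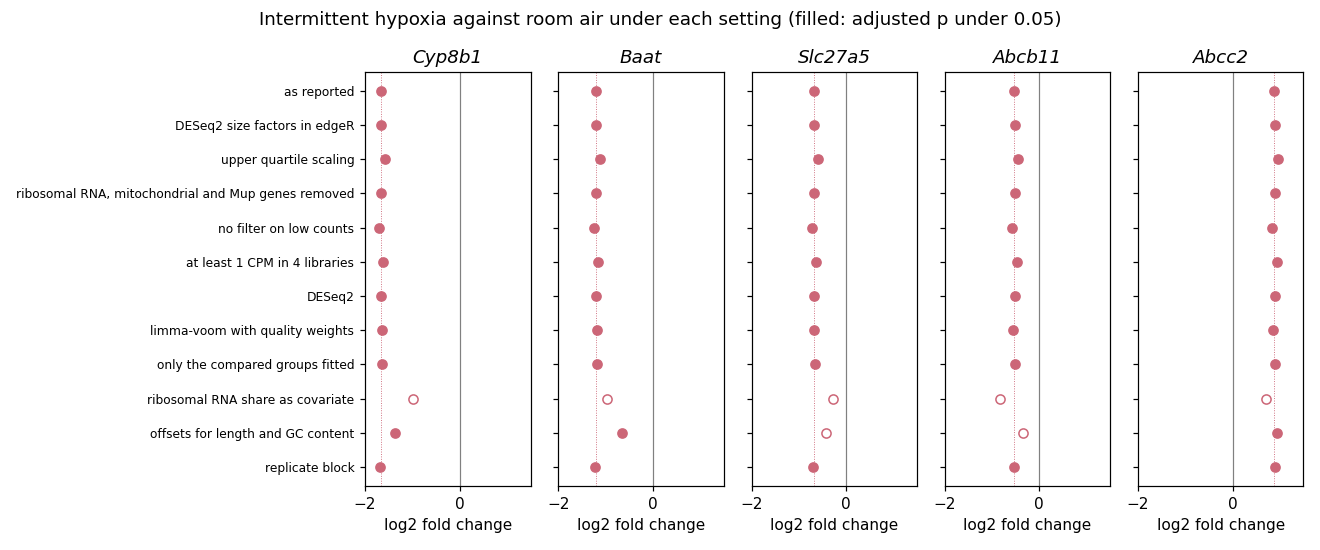
Log2 fold change in intermittent hypoxia against room air (horizontal axis) of the 5 called genes under each way of processing (rows), with filled points where the adjusted p was under 0.05. The sign of each gene is the same in every row, and the points are open in all 5 panels with the ribosomal share as covariate and for Slc27a5 and Abcb11 with length and GC offsets.

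The genes whose log2 CPM followed these genes most closely over the 16 libraries were found among all tested genes, passing over predicted genes. For Cyp7a1 they were Spc24 (Pearson r 0.92), Ugdh (0.89) and Gpam (0.87). Among the others they were Ntmt1 for Cyp8b1 (0.95), Nhlrc2 for Cyp27a1 (0.89), Sec22a for Baat (0.98), Wfdc21 for Slc27a5 (0.96), Umps for Slc10a1 (0.87), Serpina1c for Abcb11 (0.89), Caskin2 for Abcc2 (0.96) and Gstt1 for Nr1h4 (0.92). These values include the differences between groups and the shared depth of each library, and they are descriptions without a test.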

How the data were processed

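Whole liver RNA was sequenced in 16 libraries, 4 per group as named by the labels. Trizol and a TruSeq RNA kit were used, per the labels' protocols. The values deposited by the authors are expected counts, not normalized. Bowtie 1.3.0, RSEM and the build GRCm38 are named in the submitters' processing notes. The strand setting, and so whether a gene can be told from its antisense partner, is not given in the sources used here. Symbols and exon lengths came from the GENCODE annotation of the same build by gene identifier.

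Expected counts, of which 49.3% of nonzero values were not whole, were rounded. Genes passing filterByExpr of edgeR 4.0.16 (R 4.3.3) were scaled by TMM and fitted with 1 coefficient per group over all libraries by robust quasi-likelihood, with Benjamini-Hochberg adjustment over 14553 genes for each of 7 comparisons and calls at 0.05. The script was tested on simulated data. Likeness and deviations used log2 CPM with a prior count of 2. Alternatives used DESeq2 1.42.0 and limma 3.58.1. The 24 pairs of libraries within groups all differed beyond sampling noise (chi-square per degree of freedom 59.7 or more). Named genes were the 10 genes in every comparison, and from each list the called genes with the lowest p, up to 4, with any others that a count needs. The genes, lists, markers and tests were chosen with earlier results of these data known. A few genes named by this rule are left out of the text.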

Additional observations from a re-analysis of the deposited data

Results flagged for a closer look

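Among 52 groups of 4 libraries examined, 4 held a library whose gap to its nearest neighbour, divided by the range of the group, exceeded Dixon's 95% critical value for 4 values. Chance gives about 1 in 20 groups. In intermittent hypoxia, Slc27a5 in replicate 4 stood at 720.9 CPM, against 451.9 CPM in the next library (ratio 0.915). In overlap hypoxia, Slc27a5 in replicate 1 stood at 696.4 CPM, against 615.1 CPM in the next (0.838). In intermittent hypoxia, Nr1h4 in replicate 1 stood at 60.35 CPM, against 93.68 CPM in the next (0.836). In room air, Cyp7a1 in replicate 3 stood at 105.2 CPM, against 73.44 CPM in the next (0.9).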

How the results depend on the processing

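Each of the 7 counts of called genes among the 10 was recomputed under 11 other ways of processing (10 for the departure, for which no fit of only the compared groups exists) and with each of 16 libraries left out. The number called over all genes moved with the fit too, so changes in these counts need not be particular to the 10 genes. With the ribosomal RNA share as covariate the count was 0 in intermittent hypoxia against room air, beside 77 of 14553 genes over all. The count was also 0 in overlap against intermittent hypoxia and in sustained against intermittent hypoxia. With offsets for length and GC content it was 0 in overlap hypoxia against room air, 1 in overlap against intermittent hypoxia and 2 in sustained against intermittent hypoxia. There Slc10a1 changed sign, to −0.0401 from 0.55. In overlap against intermittent hypoxia limma-voom called 1, beside 3.39% of all genes where edgeR called 6.15%, and a fit of only the compared groups 0. In overlap against sustained hypoxia DESeq2 called 2, beside 7.83% of genes, and limma-voom 2, beside 8.41%. For the departure DESeq2 called 1, beside 5.16%. The cause was not tested. Cyp27a1 gained a call in intermittent hypoxia with the offsets (0.58, edgeR adjusted p = 0.0347) and with upper-quartile scaling (0.35, adjusted p = 0.0384).

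With 1 library left out, the counts ranged from 5 to 5 in intermittent and 0 to 0 in sustained hypoxia against room air, 0 to 2 in overlap hypoxia against room air, 0 to 3 in overlap against sustained hypoxia, 0 to 5 in overlap against intermittent hypoxia, 5 to 7 in sustained against intermittent hypoxia and 0 to 1 for the departure. The groups share replicate numbers, and 4 of 24 correlations between same-numbered libraries were over 0.1 (range −0.103 to 0.183). Libraries of different numbers were not set beside these, so the values cannot decide whether the numbers pair libraries. With the replicate number as a block, the counts were 0, 5 and 1 in sustained, intermittent and overlap hypoxia against room air, and 0, 2, 7 and 0 in overlap against sustained, overlap against intermittent and sustained against intermittent hypoxia and the departure.

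Over all genes, the number called in intermittent hypoxia against room air was 5404, with 77 under the ribosomal covariate and 3347 under the offsets. Upper-quartile scaling moved the median over all genes there to 0.12 on the log2 scale, from 0.03, and the split to 3125 higher and 2162 lower, from 2744 and 2660. In sustained hypoxia against room air the number was 7, with 2 to 248 under other settings. Depth limits low genes more than high ones. Of the 10, Nr0b2 had the lowest CPM, though its lowest expected count was still 248, in overlap hypoxia replicate 2.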
